A study of Homo sapiens with 16 samples.

Results

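Macrophages derived from THP-1 and stimulated with lipopolysaccharide (LPS) and interferon-gamma (IFN-gamma) were compared after culture with and without mesenchymal stem cells made from induced pluripotent stem cells (iMSCs). The comparison takes 8 of the 16 RNA sequencing libraries of the study, 4 of M0+LPS/IFNg+iMSC against 4 of M0+LPS/IFNg, and runs across all genes. THP-1 is a single human monocytic leukaemia line, wild type per the labels. In both groups the cells had first been turned into unpolarized M0 macrophages with the phorbol ester PMA (100 ng/mL, 48 hours), which was then washed out. Both groups then received 100 ng/mL of LPS from the gum bacterium Porphyromonas gingivalis and 20 ng/mL of IFN-gamma for 48 hours. In the co-cultured group iMSCs sat above the macrophages in a Transwell insert, whose membrane lets soluble factors through. The other 8 libraries, M0 and M0+iMSC, had the same PMA step without LPS or IFN-gamma and are used here only where the co-culture effect at rest is named. The deposited count columns of the co-cultured group carry the letters CM. No label says what these stand for, and that cells were present rests on the sample labels. The labels do not say that the 4 replicates of a group were separate cultures, so p-values measure the spread between these libraries, which may be technical.

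LPS typically signals through TLR4 with its helper CD14 and switches on the transcription factors NF-kB and AP-1. Which receptors the Porphyromonas gingivalis LPS used here engaged was not tested. IFN-gamma signals through JAK kinases and induces the transcription factor IRF1. Macrophages given both secrete inflammatory cytokines, chemokines, growth factors and matrix-degrading proteases, and present antigen, while mesenchymal stem cells are studied for soluble factors that alter this state. PMA stops most THP-1 cells from dividing.

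Of 14 macrophage marker genes 13 could be tested, among them LAPTM5 with a mean of 2048 CPM (counts per 1000000, after TMM scaling) in stimulated and 2754 in co-cultured macrophages. The summed level of the list was 4606 to 7586 CPM per stimulated library and 8121 to 8317 per co-cultured one. CD68 had at most 8 counts in any of the 8 libraries. Of 18 stromal marker genes 13 passed the count filter, and their levels are given with the matrix genes. The 5 that did not pass had 0 counts of COL1A2, 8 of COL3A1 and 2 of THY1 over the 4 co-cultured libraries and 0 of COL5A1 and POSTN. No pluripotent or epithelial marker gene passed the count filter, and the highest count of one in any library was 1. Depth ran from 18200706 to 24368753 counts per library. Each library is called by its group and number.

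Replicate 4 of the stimulated group stood apart. Of 7843 genes with a mean of at least 10 CPM in that group, 476 differed by 2-fold or more in replicate 4 from the average of its 3 companions, against 80 to 83 in replicates 1 to 3. For replicates 1 to 3 that average includes replicate 4. Pairs among replicates 1 to 3 differed by 2.64 to 4.0% beyond counting, and pairs with replicate 4 by 16.6 to 16.8%. On the first principal component of the 8 libraries, which took 86.7% of the variance, replicate 4 sat at -62.9 and the other stimulated libraries between -94.1 and -92.3, with the co-cultured libraries between 82.6 and 89.4. On the second, with 7.03%, replicate 4 stood alone at -62.3. Results that leaving it out changed in call or direction, or moved by over 1.5 times, are given both ways below. The comparison with resting macrophages is given only with all libraries.

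Co-culture changed most of the transcriptome measured. A total of 5876 genes were higher with iMSCs, which is 38.4% of the 15301 genes tested, and 5555 were lower, which is 36.3%, at an adjusted p under 0.05. At least 2-fold, 2920 genes rose (19.1%) and 2283 fell (14.9%). Values of the groups of 4 did not overlap for 10089 genes, or 65.9%. Without replicate 4 of the stimulated group 6280 of 15599 genes were higher (40.3%) and 5815 lower (37.3%), which is 77.5% of genes together, with 3227 (20.7%) and 2389 (15.3%) past 2-fold. Of the genes tested both ways 11108 were called in the same direction in both, 322 lost their call without replicate 4 and 843 gained one. The median log2 fold change over all genes was 0.03 with all libraries and 0.05 without replicate 4, and the split between higher and lower depends on scaling: 51.4% of called genes were higher with TMM factors and 74.6% with library totals alone, which put the median of all genes at 0.50. The counts below are read against these shares, since 74.7% of all genes tested were called in one direction or the other. In bulk RNA fewer cells of a kind and less RNA per cell cannot be told apart.

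**Figure D1:**
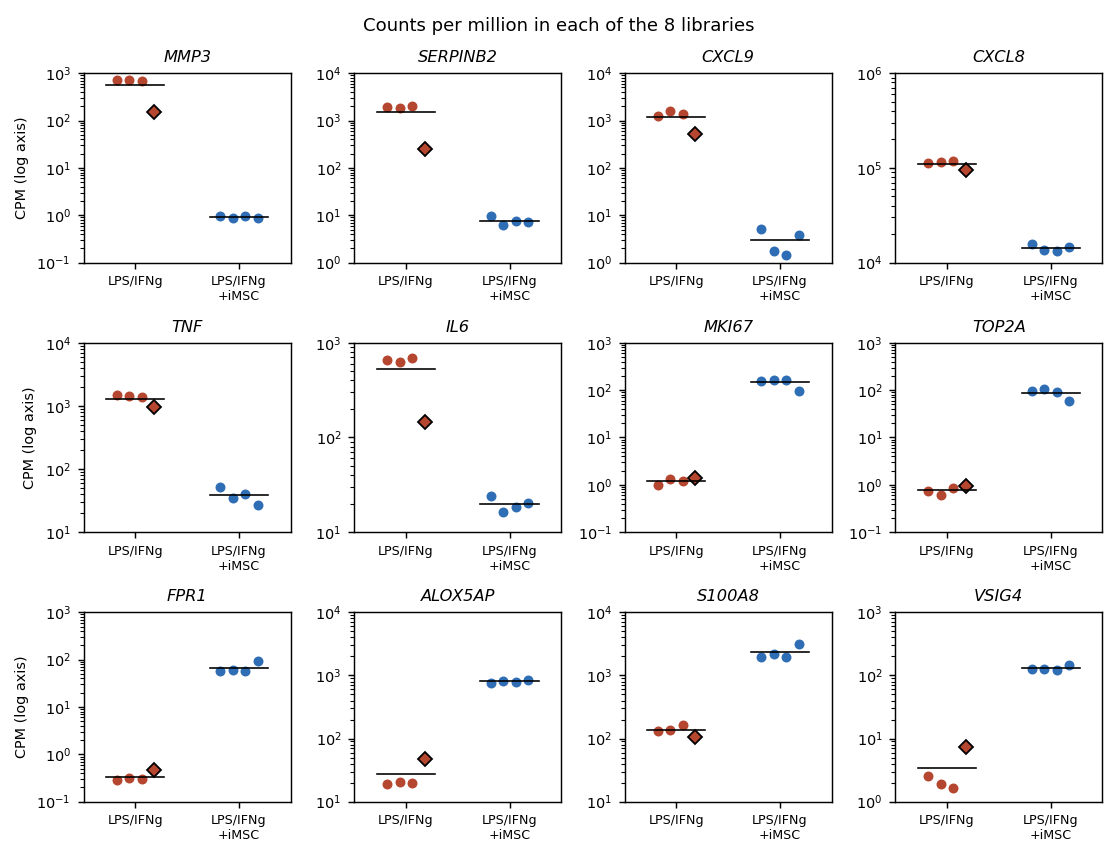
CPM after TMM scaling (log axis) of 12 genes in each of the 8 libraries, with stimulated macrophages in red, co-cultured ones in blue and the group mean as a line. The black-edged diamond is replicate 4 of the stimulated group. It sits below the other 3 for MMP3, SERPINB2 and IL6, and above them for ALOX5AP and VSIG4. No gene shown has overlapping groups, which was a condition for naming the largest rises and falls among them.

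Genes for secreted proteases and their inhibitors were among the largest falls. MMP3 (stromelysin-1, which cuts proteoglycans and activates other proteases) measured 734, 730.1, 675 and 152 CPM in stimulated replicates 1 to 4 and 0.965, 0.857, 0.976 and 0.875 in the co-cultured ones. All 4 co-cultured libraries were under 1 CPM, and stimulated replicate 4 was the lowest of its group. The log2 fold change was -9.27 ± 0.58 (SE, adjusted p = 6.93e-09), the largest fall among protein-coding genes with a mean log2 CPM of at least 3 and groups that did not overlap. MMP1, the collagenase that opens fibrillar collagen, went from 1982, 2080, 1863 and 335 CPM to 9.88, 8.78, 8.26 and 10.1, again with replicate 4 between the other stimulated libraries and the co-cultured ones. Its log2 fold change was -7.40 ± 0.56 (adjusted p = 5.2e-08). The related MMP10 fell from a mean of 62.5 ± 32.9 CPM (SD of 4 libraries, as for all CPM below) to 0.118 ± 0.0224. Of 28 metalloproteinases, ADAM proteases and their inhibitors tested, 14 fell, 12 of them at least 2-fold, and 9 rose. MMP7 (matrilysin) fell by 3.18 on the log2 scale. The inhibitors split: TIMP1 fell (1248 ± 214 to 388 ± 19.8 CPM) and TIMP2 rose (28.8 ± 5.26 to 77.7 ± 5.64 CPM). MMP2, a gelatinase, rose from 2.37 ± 2.801 to 35.8 ± 1.63 CPM, with a log2 fold change of 3.94, or 5.19 without stimulated replicate 4. MMP9, the other gelatinase and a panel gene, measured 1486 ± 610.4 and 1169 ± 128 CPM and did not pass the test (adjusted p = 0.123).

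Genes of the plasminogen system and coagulation fell alongside. SERPINB2 (plasminogen activator inhibitor 2) measured 1961, 1887, 2045 and 256 CPM in the stimulated libraries and 9.65, 6.37, 7.62 and 7.15 in the co-cultured ones, a log2 fold change of -7.64 ± 0.61 (adjusted p = 8.95e-08). TFPI2, a Kunitz-type protease inhibitor laid down in matrix, measured 814, 796, 787 and 173 and 6.16, 3.51, 4.02 and 3.31 CPM (-7.24 ± 0.56, adjusted p = 6.66e-08). Groups that did not overlap were a condition for choosing the largest falls, to which both genes belong. For both, replicate 4 was the lowest stimulated library. In all, 12 of 19 genes of the plasminogen system and coagulation fell and 4 rose, or 11 and 7 with library totals alone. The falls included PLAU (urokinase, 179.9 ± 32.2 to 36.5 ± 2.41 CPM), its receptor PLAUR (1300 ± 252 to 536 ± 50.5) and THBD (thrombomodulin, 1472 ± 96.1 to 194 ± 10.5). SERPINA1, the inhibitor of neutrophil elastase, rose from 3.71 ± 3.84 to 62.2 ± 4.89 CPM, a log2 fold change of 4.09, or 5.11 without stimulated replicate 4. The other genes among the 12 largest falls were CXCL9, OSMR, XIRP1, CSF3, STC1, SERPINB7, BMP8A and ANKRD1, between -8.65 and -6.30 on the log2 scale. OSMR, the oncostatin M receptor, went from 118 ± 61.3 CPM to 0.618 ± 0.172, and ANKRD1 was the gene of these 12 whose replicate 4 was the highest stimulated library, at 422 CPM against 210.3, 228 and 211.

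Promoters of genes that fell held a string of the AP-1 type in a larger share than promoters of genes that rose. The sequences below are RefSeq's 250 bases before the annotated start (GRCh38.p14), read along the gene, and capitals mark matches on either strand to the strings searched. CXCL8 and CXCL10 are shown as the panel's chemokine targets of the stimulus, and MKI67 and TOP2A as the 2 largest rises. SERPINB2 and TFPI2 are shown as the 2 largest falls, among those counted below, whose promoter holds the AP-1 type string.
CXCL8 (chr4:73740319-73740568, plus strand): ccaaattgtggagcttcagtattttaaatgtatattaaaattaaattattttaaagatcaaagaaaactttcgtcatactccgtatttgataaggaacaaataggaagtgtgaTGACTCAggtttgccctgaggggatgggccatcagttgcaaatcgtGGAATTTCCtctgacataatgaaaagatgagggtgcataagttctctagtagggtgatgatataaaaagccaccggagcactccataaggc
CXCL10 (chr4:76023498-76023747, minus strand): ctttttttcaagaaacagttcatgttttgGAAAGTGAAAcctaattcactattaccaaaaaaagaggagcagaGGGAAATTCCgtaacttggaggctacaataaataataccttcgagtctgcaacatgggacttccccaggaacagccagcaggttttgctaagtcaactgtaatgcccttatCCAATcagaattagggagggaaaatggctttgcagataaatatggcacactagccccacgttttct
SERPINB2 (chr18:63887455-63887704, plus strand): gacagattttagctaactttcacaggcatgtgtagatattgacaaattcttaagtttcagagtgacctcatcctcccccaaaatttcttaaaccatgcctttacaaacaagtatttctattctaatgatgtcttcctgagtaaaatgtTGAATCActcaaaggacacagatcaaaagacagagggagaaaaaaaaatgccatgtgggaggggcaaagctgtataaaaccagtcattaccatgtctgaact
TFPI2 (chr7:93890754-93891003, minus strand): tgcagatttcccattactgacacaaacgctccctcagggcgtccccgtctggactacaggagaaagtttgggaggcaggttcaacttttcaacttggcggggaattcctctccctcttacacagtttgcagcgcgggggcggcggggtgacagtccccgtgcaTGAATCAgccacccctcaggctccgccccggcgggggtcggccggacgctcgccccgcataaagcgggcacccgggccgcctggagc
MKI67 (chr10:128126424-128126673, minus strand): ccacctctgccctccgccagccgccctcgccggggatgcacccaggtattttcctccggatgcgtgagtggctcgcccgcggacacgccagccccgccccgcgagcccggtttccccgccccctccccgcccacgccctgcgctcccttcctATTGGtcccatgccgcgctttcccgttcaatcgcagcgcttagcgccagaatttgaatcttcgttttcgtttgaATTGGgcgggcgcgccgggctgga
TOP2A (chr17:40417897-40418146, minus strand): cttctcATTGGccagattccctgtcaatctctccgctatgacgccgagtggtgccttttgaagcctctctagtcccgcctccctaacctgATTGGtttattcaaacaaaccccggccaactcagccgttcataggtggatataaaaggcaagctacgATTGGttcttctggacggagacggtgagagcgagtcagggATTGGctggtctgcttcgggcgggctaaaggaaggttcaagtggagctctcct
The strings were TGANTCA (AP-1 type), GGANNTTCC (NF-kB type), the same with a further G in front, which overlaps it, TTCNNNGAA (GAS type), the interferon-stimulated response element type (GAAA, 2 bases of any kind, GAAA) and CCAAT. They were chosen with the genes in view: the shorter NF-kB string was taken because the longer one misses the CXCL8 site, and CCAAT was added for the cell-cycle genes. Among 10818 of 15301 tested genes with an entry in this table, TGANTCA stood in 8.15% of promoters of genes at least 2-fold lower, 3.49% of those at least 2-fold higher and 4.23% of all. GGANNTTCC stood in 4.59%, 3.64% and 3.87%, and its longer form in 1.78%, 1.38% and 1.41%. For TTCNNNGAA the shares were 6.78%, 5.11% and 5.69%, for the interferon-stimulated response element type 2.47%, 2.26% and 2.53%, and for CCAAT 32.5%, 36% and 34.9%. Promoters were searched for 8 of the 12 largest falls, and 4 of these held the AP-1 type string. The rest of the 12 were not searched, so this is a share of a subset. These shares are a description with no test, and a match to letters is not a bound site.

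Chemokines that draw neutrophils and T cells were lower with iMSCs. CXCL8 (interleukin 8, which attracts neutrophils), the gene with most counts in stimulated macrophages, measured 112100, 114500, 119500 and 95420 CPM there and 15680, 13730, 13420 and 14780 with iMSCs. The groups were far apart, with replicate 4 the lowest of the stimulated libraries, and the log2 fold change was -2.94 ± 0.09 (adjusted p = 3.26e-14). CXCL8 alone took 7.71 to 9.77% of the counts of a stimulated library and 1.54 to 1.77% of a co-cultured one. Of 12 CXC chemokines tested 10 fell and 0 rose (median log2 fold change -2.57). CXCL9, which attracts activated T cells through CXCR3, measured 1234, 1630, 1384 and 522 CPM in stimulated and 5.14, 1.796, 1.43 and 3.79 in co-cultured libraries (-8.65 ± 0.62, adjusted p = 1.07e-05). Its relatives CXCL10 and CXCL11 fell, with log2 fold changes of -4.02 and -3.90, the latter -3.31 without replicate 4. CXCL1, CXCL2 and CXCL3, whose near-identical sequences can share reads, fell, with log2 fold changes of -2.20, -3.19 and -3.24. CXCL5 measured 1968 ± 974 and 1151 ± 587 CPM and did not pass the test (adjusted p = 0.0941), but fell by 1.08 without stimulated replicate 4 (adjusted p = 0.00369) and fell by 1.20 without co-cultured replicate 4 (adjusted p = 0.0119). CC chemokines were mixed: 6 of 13 fell, led by CCL3 (1525 ± 181 to 242 ± 46.3 CPM) and CCL20 (4560 ± 780.5 to 1282 ± 276), and 5 rose, among them CCL22, a ligand of CCR4 on regulatory T cells (2.81 ± 0.7097 to 13.2 ± 0.995). CCL2 and CCL5 measured 334 ± 67.7 and 699.5 ± 839 CPM in the stimulated group and 504 ± 102 and 1076 ± 171 with iMSCs, with adjusted p of 0.0873 and 0.314. Without stimulated replicate 4 both rose, CCL5 by 1.94 (adjusted p = 1.77e-12) and CCL2 by 0.74 (adjusted p = 0.046).

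Cytokines of the interleukin 6 and colony-stimulating families were lower almost throughout. IL6 measured 660.2, 631, 692 and 144 CPM in the stimulated libraries and 24.4, 16.3, 18.2 and 20.5 in the co-cultured ones, without overlap, for a log2 fold change of -4.75 ± 0.43 (adjusted p = 2.7e-07). Of 15 genes of this list 13 fell and 1 rose (median -3.42). The myeloid growth factors CSF2, CSF3 and CSF1 fell from 53.98 ± 28.5, 184 ± 30.96 and 237 ± 45.5 CPM to 0.369 ± 0.118, 1.74 ± 0.447 and 15.7 ± 3.37. LIF and IL11, which share the receptor chain gp130 with IL6, fell, with log2 fold changes of -5.39 and -6.46. OSM, another member of that family, was the 1 gene that rose (0.812 ± 0.264 to 3.95 ± 0.553 CPM), while its receptor OSMR was among the largest falls. TNF measured 1508, 1414, 1359 and 952 CPM against 52.8, 34.4, 39.7 and 26.5, a log2 fold change of -5.09 ± 0.23 (adjusted p = 6.82e-11); the groups lay far apart. IL10, a cytokine that dampens macrophage activation, fell too, from 6.16 ± 1.23 to 1.74 ± 0.332 CPM.

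In the interleukin 1 family IL1A and IL1B fell, while IL18 and some of the genes that process these cytokines rose. IL1B measured 49880, 51680, 50690 and 34310 CPM in stimulated and 8304, 6570, 7180 and 8126 in co-cultured libraries, which did not overlap (-2.63 ± 0.12, adjusted p = 1.68e-12). IL1A fell by 3.16 on the log2 scale, and the receptor antagonist IL1RN fell by 2.17. IL33 was at 67.2, 59.9, 66.2 and 2.71 CPM in stimulated replicates 1 to 4 and at 2.21, 2.08, 1.84 and 4.38 with iMSCs, so that replicate 4 fell within the range of the co-cultured libraries. Its log2 fold change was -4.24 ± 0.75 with replicate 4 and -4.65 ± 0.35 without. NLRP3, the sensor of the best-known inflammasome, fell from 425 ± 18.1 to 101 ± 7.87 CPM. The sensors NLRC4 and NAIP, which detect bacterial flagellin and secretion needles, rose by 3.12 and 3.78, or 4.20 and 4.62 without replicate 4, although reads of NAIP can be shared with its partial copies. The adaptor PYCARD and the cytokine IL18 rose from 3.497 ± 0.489 and 2.17 ± 0.632 to 15.1 ± 1.22 and 21.5 ± 1.06 CPM, and CASP1, the protease that cuts both IL1B and IL18 precursors, from 95.2 ± 43.1 to 163 ± 9.29. In all 15 of 24 genes fell and 6 rose.

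Growth factors fell as a group, with 18 of 24 lower and 2 higher, and a median of -2.79 (6 higher with library totals alone). The epidermal growth factor receptor ligands AREG, EREG and HBEGF fell, with log2 fold changes of -5.78 (-6.38 without co-cultured replicate 4), -4.29 and -2.01, and NRG1, which binds the related ERBB3 and ERBB4, from 1271 ± 217 to 34.2 ± 7.15 CPM. INHBA, which encodes a subunit of activin, measured 491, 549.6, 579 and 135 CPM in stimulated and 8.87, 5.51, 5.52 and 9.34 in co-cultured libraries, and fell by 5.92. TGFB3, PDGFA and TGFB1 fell, with log2 fold changes of -5.53 (-4.16 without replicate 4), -4.36 and -1.24. VEGFA, which drives vessel growth, moved the other way, from 336, 325, 345 and 297 CPM to 722, 674, 676 and 832, a rise of 1.16 ± 0.07 (adjusted p = 5.34e-11). GRN (progranulin) rose by 0.53 (adjusted p = 0.016), a call lost without any one of stimulated replicates 1 to 3 (adjusted p of 0.0513, 0.0522 and 0.0518).

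Of 15 genes of the prostaglandin and leukotriene pathway 10 rose and 4 fell. PTGS2 (cyclooxygenase 2, which makes prostaglandin precursors under inflammation) measured 8928, 9058, 9508 and 2331 CPM in stimulated and 211, 158, 158 and 197 in co-cultured libraries, a log2 fold change of -5.36 ± 0.47 (adjusted p = 2.04e-07). Its constitutive relative PTGS1 rose from 53.8 ± 6.25 to 136 ± 11.5 CPM. ALOX5AP, the protein that hands arachidonic acid to 5-lipoxygenase, measured 18.9, 20.9, 20.1 and 48.2 CPM in stimulated and 754, 819.6, 797 and 843 in co-cultured libraries. Replicate 4 was the highest stimulated library, and the rise was 4.90 ± 0.26 (adjusted p = 5.25e-10). The gene belongs to the largest rises, which were chosen among genes whose groups did not overlap. The lipoxygenase ALOX5 itself rose from 21.9 ± 16.5 to 273 ± 10.8 CPM, or by 3.64 with and 4.32 without replicate 4. LTA4H, which makes leukotriene B4, rose by 1.94, and LTB4R, the receptor of that leukotriene, by 2.20.

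Signalling genes that stimulation induces early were lower in co-culture. Of 25 AP-1, EGR, KLF and NR4A transcription factor genes and their immediate-early companions 19 fell and 2 rose (median -1.47). The AP-1 subunits FOSL1, FOSB and JUNB fell from 63.7 ± 9.67, 20.3 ± 0.567 and 141 ± 24.9 CPM to 10.4 ± 0.912, 2.62 ± 0.743 and 50.9 ± 3.37. FOS rose (86.5 ± 10.5 to 314 ± 32.4 CPM), and JUN measured 257 ± 42.7 and 273 ± 19.6 CPM with an adjusted p of 0.371, or a rise of 0.21 without stimulated replicate 4 (adjusted p = 0.00151). With library totals alone 5 genes of the list rose. The stress-responsive ATF3 fell by 2.67. Of 16 MAP kinase phosphatases and Sprouty-family inhibitors 13 fell. DUSP5, which acts on ERK in the nucleus, measured 341, 332, 338 and 216 CPM in stimulated and 10.98, 8.65, 8.29 and 7.296 in co-cultured libraries (-5.12 ± 0.17, adjusted p = 3.74e-13). SPRY2 and SPRY4 fell, with log2 fold changes of -3.53 and -2.79, and SPRY1 rose by 2.00. Of the NF-kB genes 20 of 24 fell, 10 of them at least 2-fold, and 3 rose (5 with library totals alone), with a median of -0.88. The inhibitor NFKBIA fell from 662 ± 33.2 to 284 ± 9.03 CPM and the subunit NFKB1 from 226 ± 13.4 to 134 ± 13.1. TNFAIP3 (A20), another brake on NF-kB, rose from 467 ± 113 to 598 ± 38.2. BIRC3, an inhibitor of apoptosis, fell from 97.8 ± 9.38 to 7.51 ± 1.27 CPM, and BCL2 from 152 ± 7.13 to 18.9 ± 2.17.

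**Figure D2:**
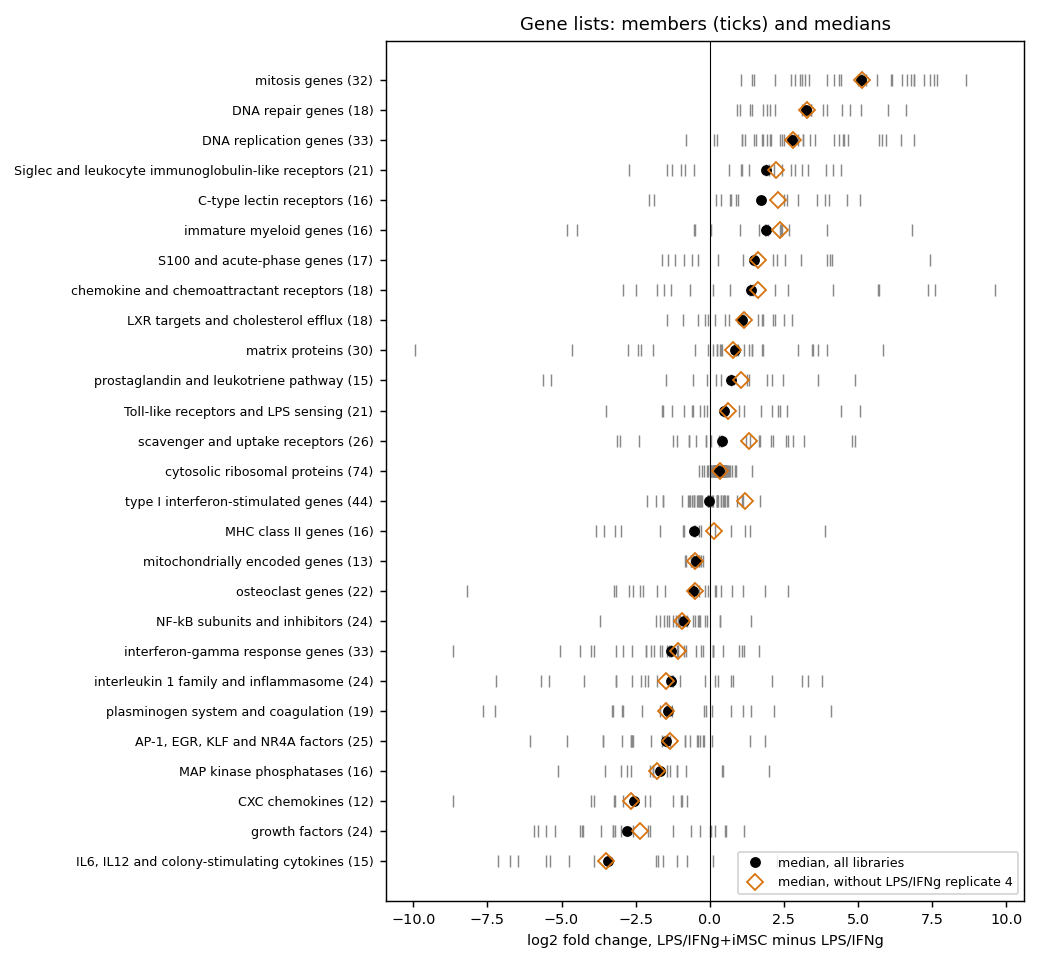
Log2 fold changes of co-cultured against stimulated macrophages for the tested members (ticks, number in brackets) of 27 gene lists, with their median over all libraries (black) and without stimulated replicate 4 (open diamond). The cell-cycle lists lie at the right and the cytokine and growth factor lists at the left, and the 2 medians part most for the type I interferon-stimulated genes (-0.03 and 1.19).

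Most genes of the IFN-gamma response fell. IRF1 measured 478, 472, 458 and 438 CPM in stimulated and 125, 97, 98.4 and 98.01 in co-cultured libraries, with a log2 fold change of -2.14 ± 0.07 (adjusted p = 6.05e-14). Every co-cultured library was below every stimulated one. Of 33 genes on this list 24 fell, 20 at least 2-fold, and 4 rose (median -1.30), or 22 fell and 8 rose with library totals alone. CD274, which encodes the T cell inhibitory ligand PD-L1, measured 289.9, 316, 306 and 252 CPM against 17.3, 15.3, 12.99 and 10.5, a fall of 4.37. IDO1, which degrades tryptophan, fell from 424 ± 155 to 12.8 ± 5.599 CPM and WARS1, the tryptophanyl-tRNA synthetase, from 1799 ± 67.8 to 236 ± 25.9. The guanylate-binding proteins GBP1, GBP2, GBP4 and GBP5, whose related sequences can share reads, fell, with log2 fold changes of -1.36, -1.62, -2.16 and -2.62. ACOD1, which makes the antimicrobial metabolite itaconate, fell from 142 ± 8.595 to 2.07 ± 0.613 CPM. CD38, IRF8, APOL3 and FCGR1A rose, by 1.67, 1.14, 1.07 and 0.99.

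Genes that answer type I interferon depended on stimulated replicate 4. IFIT1, which binds viral RNA caps, measured 4.91, 3.53, 2.66 and 213 CPM in stimulated replicates 1 to 4 and 78.9, 51.2, 53.7 and 30.6 in the co-cultured ones. Replicates 1 to 3 were below and replicate 4 above every co-cultured library. The log2 fold change was -0.06 ± 1.04 with all libraries (adjusted p = 0.964) and 3.87 ± 0.35 without replicate 4 (adjusted p = 4.63e-07). ISG15 behaved alike, at 13.4, 15.6, 13.9 and 184 CPM against 46.95, 39.9, 39.1 and 30.8, with -0.53 ± 0.71 (adjusted p = 0.511) turning to 1.45 ± 0.13 (adjusted p = 7.55e-09). With all libraries 2 of 44 such genes were higher and 7 lower, and without replicate 4 37 were higher and 6 lower. The median of the list, -0.03 with all libraries, also changed sign with upper-quartile factors, library totals alone and limma-voom, and without co-cultured replicate 4 (0.05, 0.46, 0.53 and 0.05). Relative to stimulated replicates 1 to 3 the median of the list was 2.44 on the log2 scale in replicate 4 and 0.91 to 1.44 in the co-cultured libraries. PARP14 fell with and without that library, by log2 fold changes of -1.58 and -1.29, and SAMHD1, which limits nucleotides for viruses, rose by 1.68 and 2.32. The largest departures of replicate 4 from the other stimulated libraries were upward in IFIT1, IFI44L, IFI27, USP18, GALM, IFI44, HLA-DPA1 and RSAD2, with ratios of 18.7 to 57.5, and downward in IL33, KCNN3, S100A16 and LINC01705, with ratios of 0.0421 to 0.1302. GALM, IFI27, IFI44, IFI44L and USP18 did not pass with all libraries and were higher with iMSCs without it, by 3.89, 3.13, 2.94, 2.91 and 3.43. RSAD2 did not pass with all libraries (adjusted p = 0.0726), but fell, at -2.15 to -2.14, without any one of stimulated replicates 1 to 3 and rose by 0.64 without replicate 4 (adjusted p = 0.033). What set that library apart was not tested.

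**Figure D3:**
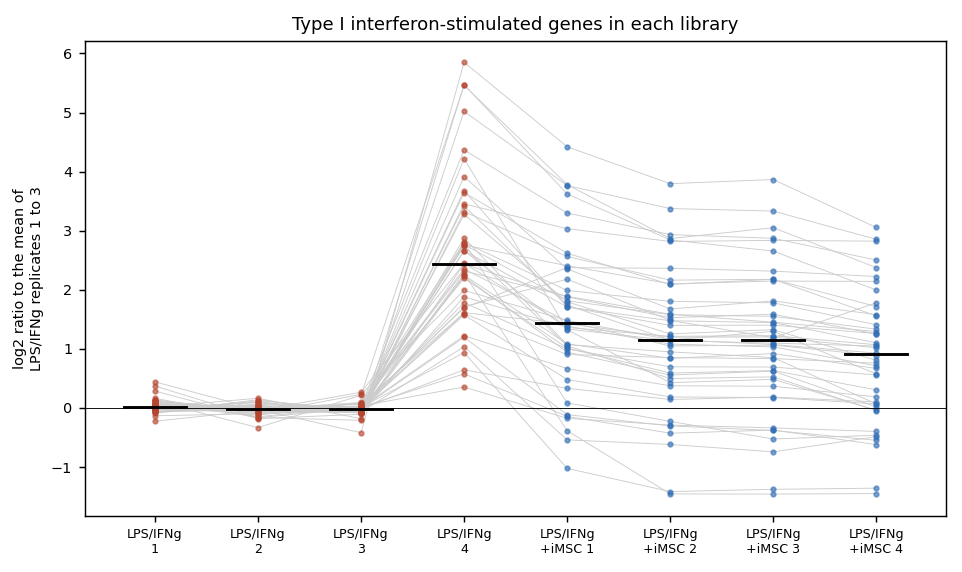
Log2 ratio of each of the 44 type I interferon-stimulated genes (points, joined by gene) to the mean of stimulated replicates 1 to 3, in each of the 8 libraries, with the median as a bar. Stimulated replicate 4 has the highest median, 2.44, above those of the 4 co-cultured libraries.

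Genes of MHC class II and T cell costimulation depended on the same library in part. Of 16 MHC class II genes 4 rose and 6 fell with all libraries (median -0.52), and 7 rose and 5 fell without replicate 4 (median 0.15). CD74, the invariant chain of MHC class II, measured 138, 135, 133 and 835 CPM in stimulated and 218, 193, 192 and 246 in co-cultured libraries, with replicate 4 above and the other 3 below all co-cultured ones. Its log2 fold change was -0.55 ± 0.51 (adjusted p = 0.344), or 0.65 ± 0.07 without replicate 4 (adjusted p = 1.34e-07). HLA-DRA fell with and without it, at -3.56 and -2.05. HLA-DPA1 fell by 2.99 (adjusted p = 0.0119) with all libraries, and without replicate 4 its adjusted p was 0.0955. CIITA, the master regulator of these genes, fell from 2.83 ± 0.71 to 0.8903 ± 0.246 CPM. The subunits of the RFX complex that binds their promoters, RFX5, RFXANK and RFXAP, rose by 1.19, 0.70 and 1.35. MARCHF1, a ubiquitin ligase that removes MHC class II from the cell surface, rose by 3.89, or 7.45 without replicate 4. Close HLA paralogs can share reads. Genes of other kinds turned with that library as well: HAVCR2 (the inhibitory receptor TIM-3), CD84 and RAB7B had log2 fold changes of -0.07, -0.19 and -0.09 with all libraries (adjusted p of 0.891, 0.738 and 0.826) and of 0.98, 0.93 and 0.64 without it (adjusted p of 3.22e-11, 3.55e-08 and 2.18e-08). Of 20 genes of MHC class I and peptide loading 8 fell, a share near the 36.3% of all genes, and 3 rose, against 38.4% of all genes. Those that fell included TAP1 (778 ± 219.5 to 316 ± 29.5 CPM) and B2M (13100 ± 2980 to 7479 ± 472). In this list 6 rose without replicate 4, and 9 rose and 4 fell with library totals alone. Among T cell ligands CD86 rose from 0.457, 0.311, 0.502 and 1.902 CPM to 23.9, 23.3, 22.2 and 31.4, by 5.01, or 5.87 without replicate 4, while CD83 fell by 3.22. CD80 measured 4.004 ± 4.02 and 5.805 ± 1.37 CPM and passed the test only without replicate 4, at 1.54 (adjusted p = 3.97e-07).

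**Figure D4:**
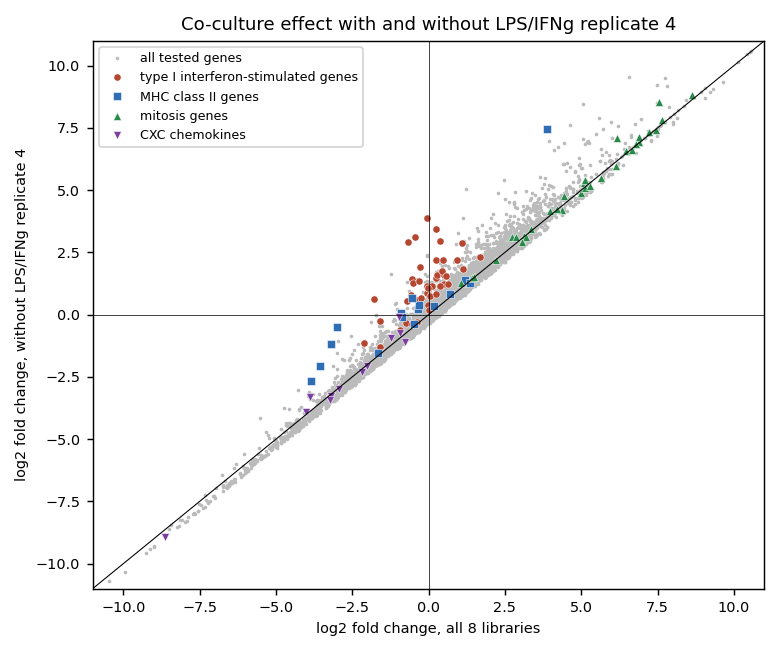
Log2 fold change of co-cultured against stimulated macrophages with all 8 libraries (horizontal axis) and without stimulated replicate 4 (vertical axis) for all tested genes and 4 lists. Most genes lie near the diagonal, while type I interferon-stimulated and several MHC class II genes lie above it.

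Genes of the cell cycle were among the largest rises. MKI67, which encodes the proliferation marker Ki-67, measured 0.971, 1.35, 1.204 and 1.38 CPM in stimulated and 158, 165, 160.4 and 97.7 in co-cultured libraries. All stimulated libraries were under 2 CPM, and co-cultured replicate 4 was the lowest of its group. The rise of 6.88 ± 0.31 (adjusted p = 7.58e-11) was the largest among protein-coding genes past the same expression limit, followed by TOP2A, the topoisomerase that untangles DNA before division, at 0.742, 0.623, 0.853 and 0.922 CPM against 94.3, 105, 89.8 and 59.9 (6.79 ± 0.32, adjusted p = 9.04e-11). All 32 mitosis genes tested rose at least 2-fold, with a median of 5.10, against the 19.1% of all genes that did so. They include the kinases CDK1 (0.661 ± 0.656 to 45.9 ± 10 CPM), PLK1 (1.402 ± 0.198 to 12.2 ± 2.71) and AURKB (0.123 ± 0.0339 to 4.32 ± 1.03), the cyclins CCNA2 (0.232 ± 0.116 to 27.9 ± 7.56) and CCNB1 (1.66 ± 0.308 to 16.8 ± 3.89), and the spindle checkpoint gene BUB1B (0.134 ± 0.0653 to 21.03 ± 5.07). The rise of CDK1 was 6.16, or 7.07 without stimulated replicate 4. BIRC5 (survivin) had 3 counts, in replicates 3 and 4, over the 4 stimulated libraries and 1746 over the co-cultured ones, a ratio of 461 with a 95% counting interval of 158 to 2240. Of 33 DNA replication genes 30 rose, 30 of them at least 2-fold (median 2.76), and GINS3 fell (15.5 ± 1.71 to 8.94 ± 1.97 CPM). The helicase subunit MCM3 rose from 12.5 ± 0.7003 to 109 ± 23.4 CPM, thymidylate synthase TYMS from 0.464 ± 0.154 to 55.7 ± 12.6 and the clamp PCNA from 8.15 ± 0.406 to 42.6 ± 8.57. All 18 DNA repair genes tested rose, 17 at least 2-fold, such as BRCA1 (4.15 ± 0.888 to 44.5 ± 11.9 CPM) and EXO1 (0.7003 ± 0.126 to 24.1 ± 7.01).

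The regulators of division moved both ways. MYBL2 and FOXM1, which switch on late cell-cycle genes, rose from 0.0934 ± 0.0812 and 0.1397 ± 0.152 CPM to 53.7 ± 12.4 and 17.4 ± 2.94, with FOXM1 at 6.95, or 7.84 without replicate 4. E2F1 rose from 0.404 ± 0.2796 to 20.7 ± 4.51 CPM. E2F2 and E2F8 had 0 counts in the stimulated libraries and were at least 203-fold and 212-fold higher with iMSCs, bounded at 3 counts over the group. CDKN1A (p21, which halts the cycle) fell from 1994, 2052, 1913 and 1906 CPM to 214, 169, 197 and 214, a log2 fold change of -3.31 ± 0.08 (adjusted p = 1.54e-15). CCND1 (cyclin D1) and E2F7 fell, with log2 fold changes of -2.03 and -4.08, and MYC and CCND3 rose by 1.42 and 1.00. The summed level of the mitosis list ran from 44.4 to 60.3 CPM per stimulated library and from 556 to 954 per co-cultured one. Among histone genes 4 of 17 rose and 7 fell (9 rose with library totals alone), the variant H2AX rising from 8.21 ± 0.9296 to 23.3 ± 2.48 CPM and H2BC4 falling from 6.897 ± 1.48 to 1 ± 0.151.

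Receptors for chemokines and other chemoattractants were higher with iMSCs in 11 of 18 cases and lower in 5, while genes that sense bacterial products changed in both directions. FPR1, the receptor for bacterial formyl peptides, measured 0.285, 0.311, 0.301 and 0.461 CPM in stimulated and 56.4, 61.9, 56.3 and 92.5 in co-cultured libraries. Every stimulated library was under 1 CPM and every co-cultured one above 50, for a rise of 7.60 ± 0.24 (adjusted p = 5.81e-14). CX3CR1, the fractalkine receptor of patrolling monocytes, rose by 5.72. CCR2, the receptor that brings monocytes into inflamed tissue, had 1 count over the stimulated libraries, in replicate 3, and 1424 over the co-cultured ones, a ratio of 1130 with a 95% counting interval of 202 to 44600. The chemoattractant receptors that fell were C5AR1 and C5AR2, which bind complement C5a (613 ± 245 and 145 ± 10.6 to 208 ± 17.9 and 19.02 ± 2.87 CPM), CCR7, CXCR4 and P2RX7. Of 21 genes of Toll-like receptors and LPS sensing 10 rose and 8 fell, or 13 and 5 with library totals alone. CD14 and TLR4 rose from 444 ± 179 and 25.8 ± 14.2 CPM to 1899 ± 50.4 and 128 ± 12.2, TLR8 from 19.3 ± 3.32 to 98.8 ± 7.41, and TLR2 fell from 632 ± 239.6 to 429 ± 33.8. TLR1 and TLR10 also fell, from 114 ± 33.4 and 0.826 ± 0.1904 to 75.1 ± 6.11 and 0.2704 ± 0.105 CPM. With library totals alone TLR1 and TLR2 did not pass the test (adjusted p = 0.354 and 0.646). Stimulated replicate 4 was the highest of its group for both, at 164 CPM for TLR1 and 992 for TLR2. IRAK2 and RIPK2, kinases downstream of these sensors, fell, with log2 fold changes of -3.52 and -1.56.

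The calprotectin genes rose together. S100A8 measured 133, 137, 162 and 106 CPM in stimulated and 1956, 2207, 1988 and 3107 in co-cultured libraries (4.11 ± 0.23, adjusted p = 6.09e-10). Its partner S100A9 measured 408, 424, 471 and 242 and 2964, 3032, 2835 and 4328 CPM (3.09 ± 0.23, adjusted p = 1.24e-08). In both, co-cultured replicate 4 was the highest library and no value overlapped. The related S100A11 and S100A13 fell, with log2 fold changes of -0.86 and -1.62. LYZ (lysozyme) rose by 2.12, or 3.21 without stimulated replicate 4. Of 16 genes of immature myeloid cells 11 rose, all at least 2-fold, and 4 fell, or 2 with library totals alone. MYB and FLT3 rose from 0.569 ± 0.124 and 0.674 ± 0.262 to 2.93 ± 0.518 and 3.62 ± 0.629 CPM and the granule gene RNASE2 from 10.9 ± 10.4 to 68.9 ± 5.15, or by 2.67 and without replicate 4 by 3.58. BAALC fell from 21.2 ± 2.97 to 0.737 ± 0.0419 CPM. Among lineage factors PPARG rose by 2.77, or 3.46 without replicate 4, while SPI1 (PU.1) measured 288 ± 76.2 and 327 ± 13.8 CPM (adjusted p = 0.184) and was higher by 0.38 without replicate 4 (adjusted p = 2.73e-07).

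Receptors for uptake and immune regulation were among the other large rises. VSIG4, a complement receptor that also restrains T cells, measured 2.57, 1.92, 1.66 and 7.44 CPM in stimulated and 127, 127, 123 and 146 in co-cultured libraries, with replicate 4 the highest stimulated one. It rose by 5.29 ± 0.31 with all libraries and 6.00 ± 0.10 without replicate 4 (adjusted p = 1.92e-09 and 5.06e-22). FCGR3A, an IgG receptor with a near-identical copy in FCGR3B, measured 1.66, 1.87, 2.21 and 17.6 and 127, 126, 117 and 162 CPM and rose by 4.54, or 6.11 without replicate 4. The largest rises also included STMN1, which destabilizes microtubules (1.14 ± 0.416 to 68.1 ± 11.5 CPM), ANTXR1, an anthrax toxin receptor (2.76 ± 0.142 to 104 ± 14.5), ADGRE3, an adhesion receptor (1.96 ± 0.182 to 64.6 ± 11.7), and ZWINT, a kinetochore gene (2.32 ± 0.261 to 54.6 ± 11.3). C1orf162 rose by 4.91, PRAM1 by 4.72 and NFAM1, an immune signalling receptor, by 4.60, or 5.99, 5.32 and 5.15 without replicate 4. Of 21 Siglec and leukocyte immunoglobulin-like receptor genes, close paralogs that can share reads, 14 rose and 6 fell (median 1.91). SIGLEC7 and CD33 rose from 1.19 ± 0.711 and 17.8 ± 3.49 to 25.4 ± 1.71 and 70.6 ± 2.91 CPM, and SIGLEC15 fell from 8.88 ± 3.87 to 1.36 ± 0.347. C-type lectin genes rose in 12 of 16 cases and fell in 2. CLEC4E (Mincle, which detects mycobacterial glycolipid) went from 2.19 ± 1.19 to 35.2 ± 1.69 CPM and LY75, an antigen uptake receptor of dendritic cells, from 1.72 ± 0.436 to 25.3 ± 0.6901.

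Scavenger and efferocytosis receptors split, and several depended on stimulated replicate 4. LRP1, which takes up many ligands including apoptotic cells, measured 48.6, 42.96, 48.6 and 129 CPM in stimulated and 615, 542, 579.8 and 718 in co-cultured libraries and rose by 3.19 ± 0.33 (adjusted p = 9.86e-07). MSR1 (scavenger receptor A) fell, at -3.13, or -2.08 without replicate 4. TREM2 and MERTK, which bind lipids and dying cells, rose by 2.63 and 1.35, or 4.51 and 2.52 without it. The call of MERTK was lost without any one of stimulated replicates 1 to 3 (adjusted p of 0.066, 0.0678 and 0.068). CD36 rose by 2.15, or 3.12 without replicate 4. CD163, the haemoglobin receptor, measured 22.9, 22.5, 26.1 and 252 CPM against 87.9, 78.6, 83.8 and 43.9. Its log2 fold change was -0.13 ± 0.67 (adjusted p = 0.867) and became 1.62 ± 0.22 without replicate 4 (adjusted p = 2.21e-05). In all 11 of 26 rose and 6 fell, and without replicate 4 15 rose and 6 fell. C1QA, a complement C1q chain, rose by 2.46, or 5.41 without replicate 4. C3 rose from 581 ± 83.8 to 1802 ± 58.2 CPM, and CD59, which shields cells from complement, fell from 175 ± 49.9 to 27.5 ± 1.13.

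Matrix and adhesion genes changed in composition. FN1 (fibronectin) measured 107, 93.2, 93.5 and 51.9 CPM in stimulated and 892, 795, 986 and 1109 in co-cultured libraries, without overlap, and rose by 3.45 ± 0.19 (adjusted p = 2.03e-10). VCAN (versican) rose from 0.849 ± 0.104 to 49.7 ± 26.3 CPM, and TGFBI by 3.47, or 4.18 without replicate 4. SPP1 (osteopontin) fell, at -2.33 or -1.17 without that library, THBS1 (thrombospondin 1) from 732 ± 238 to 138 ± 9.13 CPM, and HAS2, a hyaluronan synthase, from 431 counts over the stimulated libraries to 0, at least 181-fold lower. Of 30 matrix genes 19 rose and 6 fell. Of the integrins, ITGA4 and ITGA6 rose by 2.31 and 2.39, and ITGA2, ITGB3 and ITGB8 fell, with log2 fold changes of -5.60, -3.23 and -3.46. Osteoclast genes, listed because the series concerns alveolar bone loss, fell in 12 of 22 cases and rose in 4 (median -0.55). The counts were 12 and 8 without stimulated replicate 4, and with library totals alone 9 fell and 9 rose (median -0.08), so that the excess of falls depended on the scaling. DCSTAMP, needed for cell fusion in mouse osteoclasts, fell from 247 ± 49.3 CPM to 40.99 ± 4.64, and TNFRSF11A (the receptor RANK) from 17.9 ± 3.25 to 3.495 ± 0.148. FOS and TREM2, given above, were among the 4 that rose.

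Stromal marker genes fell more often than they rose in these macrophages: 7 of 13 tested were lower and 3 higher, or 5 and 4 with library totals alone. Their summed level was 1114 to 1315 CPM in stimulated and 521 to 561 in co-cultured libraries, most of it NT5E in the former and ENG in the latter. ENG (endoglin), which macrophages also express, rose from 172 ± 92.3 to 313 ± 8.403 CPM. DCN (decorin) rose from 0.0662 ± 0.0779 to 18.8 ± 2.02 CPM, by 8.01 or, without stimulated replicate 3, 8.78, and LUM (lumican) from 2 to 120 counts over the group. The part of iMSC RNA in any rise was not tested. The fibrillar collagen genes COL1A2 and COL3A1 were near zero, as given above, and COL1A1 measured 7.26 ± 0.621 and 9.18 ± 2.64 CPM (adjusted p = 0.153).

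Genes of lipid handling, glycolysis and redox balance changed in both directions. Of 18 LXR target and cholesterol efflux genes 12 rose and 3 fell. The exporter ABCG1 rose from 17.8 ± 2.55 to 101 ± 15.1 CPM, while ABCA1 measured 816 ± 52.1 and 738 ± 63.6 (adjusted p = 0.106). SQLE, an enzyme of sterol synthesis, fell, with a log2 fold change of -2.45. FABP4, a fatty acid carrier, fell, at -4.27, or -3.04 without replicate 4. LDHA rose from 368 ± 19.4 to 1042 ± 37.2 CPM and the first glycolytic enzyme HK2 fell from 687 ± 157 to 206 ± 12.9. IDH1 rose from 17.3 ± 9.11 to 94.4 ± 5.196 CPM, and ASS1, which recycles arginine, from 33.8 ± 4.74 to 138 ± 8.26. SLC7A11 and GCLC, which supply glutathione, fell, with log2 fold changes of -2.82 and -2.59, and CYBB, the catalytic subunit of the NADPH oxidase, rose from 194 ± 125 to 1452 ± 54.6 CPM. The stress genes DDIT3 and PPP1R15A fell from 42.3 ± 6.596 and 759.6 ± 18.03 to 10.8 ± 1.21 and 135 ± 10.98 CPM.

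Small shifts ran through abundant housekeeping genes. Of 74 cytosolic ribosomal protein genes 56 rose and 3 fell (median 0.32 on the log2 scale), with 1 higher at least 2-fold. Processed pseudogenes can take some of their reads. Mitochondrially encoded genes fell in 11 of 13 cases (median -0.47), a direction that went away with library totals alone (median 0.005, with 2 higher and 2 lower). RPSA rose from 203 ± 2.17 to 372 ± 36.9 CPM and MT-ND2 fell from 1586 ± 44.3 to 893 ± 70.5. Among genes of other types the largest rises were C6orf223, SLC9A7P1, PCED1B-AS1 and SNHG14 (3.02, 2.93, 2.49 and 2.17) and the largest falls LYPLAL1-AS1, RPLP0P2, KDM7A-DT and LINC02392 (-6.17, -5.74, -4.75 and -4.65). For antisense and pseudogene entries reads of the partner gene cannot be told apart, because nothing used here says whether counting took strand into account.

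The co-culture effect under stimulation was set against that in resting macrophages (M0+iMSC against M0) for a panel of activation markers. Of 32 panel genes tested 21 had a difference of effects at an adjusted p under 0.05, against 62.1% of all genes. This comparison of effects uses all 16 libraries and is not given without stimulated replicate 4, so its count and differences include that library. At rest 69.8% of genes were called. For 4 of the 32 panel genes the effects were called in opposite directions. The share of all genes called in opposite directions was not counted, so this number describes the panel only. TNF fell by 5.09 under stimulation and rose by 1.15 at rest, a difference of -6.24 ± 0.30 (adjusted p = 4.33e-10). NLRP3 and IL1RN also fell under stimulation and rose at rest, by 0.25 and 0.93, and MYC rose under stimulation and fell at rest by 1.67. PTGS2 and VEGFA had a co-culture effect in the same direction in both settings, -5.36 and -4.41 for PTGS2 and 1.16 and 1.00 for VEGFA, and their differences did not pass (adjusted p = 0.152 and 0.164). MKI67 rose in both, by 6.88 under stimulation and 4.83 at rest, with a difference of 2.05 ± 0.45 (adjusted p = 0.00117). CXCL8 fell in both, at -2.94 and -1.34, and more so under stimulation (difference -1.60 ± 0.12, adjusted p = 7.87e-09).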

How the data were processed

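RNA was sequenced from 16 libraries of THP-1 macrophages, and the authors deposited 1 table of raw read counts per gene for 60664 Ensembl genes on GRCh38.p13, per the file headers. HISAT2, HTSeq and GRCh38 are named in the submitters' processing notes without versions or roles. The strand setting and the treatment of reads shared between genes are not given in the sources used here.

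Counts were filtered with filterByExpr, scaled with TMM factors and fitted with edgeR 4.0.16 (R 4.3.3) by the robust quasi-likelihood method, with 4 group means over all 16 libraries and 12 residual degrees of freedom, and p-values were adjusted by Benjamini-Hochberg over the 15301 genes tested. Every adjusted p is from this test. The same fit was repeated without M0+LPS/IFNg replicate 4. CPM are counts per 1000000 after TMM scaling, SE is that of the log2 fold change, and SD is over 4 libraries. The difference of co-culture effects is an interaction of group means. DESeq2 1.42.0, limma 3.58.1, other factors and filters, the replicate block and each library left out were alternatives. On simulated data for this comparison (14803 genes) genes seeded with log2 changes of 0.5, 1 and 2 were called in 49.3%, 91% and 100% of cases. Only the seeded genes, of at least 1 CPM in the stimulated group, had a co-culture effect there. Libraries were drawn independently, with none set apart as stimulated replicate 4 was. The rates hold for that setting and not for data in which most genes changed. Pairs of replicates all differed by more than sampling noise, by 2.64 to 16.8% beyond counting. Counting intervals are exact, at 95%, and the floor is 3 counts over a group.

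The members and gene lists were chosen with earlier results of these data known. Genes named were drawn from a rule, and not every gene that it gives is named. It gives the 12 largest rises and falls among protein-coding genes and the 4 largest of other types (mean log2 CPM of at least 3, groups not overlapping). It adds up to 4 members of each list with the smallest p and those called against its majority. It also gives the panel, the genes most moved by replicate 4, and those whose sign that library decides. Of 244 tested genes named in the report 60 fall outside that rule and were chosen after their values were seen: ABCA1, ALOX5, AREG, ATF3, AURKB, BRCA1, C1QA, CCL5, CCNA2, CCNB1, CCND3, CD36, CDK1, COL1A1, CSF2, CXCL1, CXCL11, CXCL5, CYBB, E2F1, E2F2, E2F8, EREG, EXO1, FOSB, FOSL1, FOXM1, GBP1, GBP4, GBP5, HBEGF, IDH1, IL11, INHBA, ITGB3, ITGB8, JUN, JUNB, LAPTM5, LIF, LRP1, LTB4R, LYZ, MCM3, MERTK, MMP10, MYBL2, NFKB1, NFKBIA, PLAU, PLAUR, PLK1, RNASE2, S100A9, SPI1, SPRY4, TGFB3, TGFBI, TLR4 and TYMS. CD68, COL1A2, COL3A1, COL5A1, THY1 and POSTN, which did not pass the count filter, were likewise named after their counts were seen and are not in that total. CD40, CD209 and SOCS3, of the panel, are named only beside the comparison with resting cells in the closing section. The promoter strings and the promoters shown were also chosen after the values were seen, and RefSeq's table matched 10818 of the tested genes by symbol. Values of a few genes are not reported here and those genes are left out of the panel compared with resting cells, while counts over lists and all genes include them. List counts carry no test and are read against the share of all genes.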

Additional observations from a re-analysis of the deposited data

Results flagged for a closer look

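Within a group of 4 libraries, a library was singled out for a gene where its gap to the nearest of the others took a share of the whole range above Dixon's 95% critical value for 4 samples. This was examined for 454 pairs of a gene named in the text and a group with at least 1 CPM in its highest library, of which 133 met it, where chance gives about 1 in 20. Part of these genes were named because stimulated replicate 4 departed most in them or decided their sign, so the count describes the genes named and is no test of that library. Stimulated replicate 4 was that library in 110 of them. It was the highest of its group for 73 genes and the lowest for 37.

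Stimulated replicate 4 stood above its group, with its CPM in brackets, for ALOX5 (46.6), ALOX5AP (48.2), ANKRD1 (422), ASS1 (40.9), ATF3 (302), B2M (17560), C1QA (12.8), C1orf162 (6.28), C5AR1 (981), CASP1 (159.6), CCL2 (435) and CCL5 (1958). It was likewise apart in CPM for CD163 (252), CD36 (287), CD38 (139.8), CD74 (835), CD80 (10.03), CD83 (210.1), CD84 (49.98), CD86 (1.902), CXCL11 (23.2), CXCR4 (61.7), CYBB (381) and ENG (309.8). Further genes, with its CPM, were FABP4 (554), FCGR3A (17.6), GALM (132), GRN (352), HAVCR2 (116), HLA-DPA1 (41.7), HLA-DRA (424), IDH1 (30.9), IFI27 (141), IFI44 (160.1), IFI44L (242) and IFIT1 (213). The same library stood apart, in CPM, for IL18 (3.11), ISG15 (184), ITGA4 (67.4), LAPTM5 (2446), LRP1 (129), LYZ (122), MARCHF1 (3.52), MERTK (212), MMP2 (6.57), MMP9 (2401), MSR1 (978) and NFAM1 (5.303). Others, again with its CPM, were NLRC4 (10.3), PARP14 (512), PCED1B-AS1 (7.32), PLAUR (1673), PPARG (36.7), PRAM1 (3.34), RAB7B (139), RFX5 (68.7), RNASE2 (26.5), RSAD2 (319), SAMHD1 (289.6) and SERPINA1 (9.45). To these are added, in CPM, SNHG14 (8.47), SPI1 (402), SPP1 (11920), TAP1 (1108), TGFB3 (74.8), TGFBI (73.2), TLR1 (164), TLR2 (992), TLR4 (46.9), TNFAIP3 (636), TREM2 (62.5) and USP18 (52.6). The last were, in CPM, VSIG4 (7.44).

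Stimulated replicate 4 stood below its group, with its CPM in brackets, for AREG (246), BIRC3 (83.8), BMP8A (25.9), CCND1 (704), CD59 (100.2), CXCL2 (1170), CXCL3 (2318), DCSTAMP (173), DUSP5 (216), HAS2 (0.922), HBEGF (584) and HK2 (453). It was likewise apart in CPM for IL1A (336), IL1B (34310), IL33 (2.71), IL6 (144), KCNN3 (4.09), KDM7A-DT (32.9), LINC02392 (15.6), LYPLAL1-AS1 (45.9), MMP1 (335), MMP3 (152), NFKB1 (206) and NRG1 (948). Further genes, with its CPM, were NT5E (697), OSMR (25.7), PCNA (7.55), PLAU (132), PTGS2 (2331), S100A16 (4.67), SERPINB2 (256), SERPINB7 (204), SIGLEC15 (3.11), SPRY4 (51.7), STC1 (88.9) and TFPI2 (173). The same library stood apart, in CPM, for XIRP1 (142).

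Stimulated replicate 1 was the highest of its group, with its CPM in brackets, for ANTXR1 (2.97). Stimulated replicate 3 was the highest of its group, with its CPM in brackets, for OSM (1.204). Co-cultured replicate 1 was the highest of its group, with its CPM in brackets, for B2M (8186), CXCL10 (26.97), IRF1 (125), PARP14 (132) and WARS1 (275). Co-cultured replicate 1 was the lowest of its group, with its CPM in brackets, for LDHA (987). Co-cultured replicate 3 was the highest of its group, with its CPM in brackets, for CCL22 (14.6). Co-cultured replicate 4 was the highest of its group, with its CPM in brackets, for ADGRE3 (82.1), AREG (19.9), COL1A1 (13.1), CXCL5 (2030), FABP4 (14.7), FPR1 (92.5), IL33 (4.38), IRF8 (87.1), S100A9 (4328) and VCAN (89.1). Co-cultured replicate 4 was the lowest of its group, with its CPM in brackets, for CD84 (15.5), E2F2 (4.62), HK2 (187) and MKI67 (97.7).

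For 21 of 32 panel genes the co-culture effect under stimulation differed from that at rest by edgeR's quasi-likelihood test of the difference, adjusted over all genes. The same test called 62.1% of all genes. The differences of log2 effects, stimulated minus resting, were TNF (-6.24), NLRP3 (-2.33), IL1RN (-3.10) and MYC (3.08) for the genes called in opposite directions. For the others they were IL1B (-2.37), IL6 (-2.54), CXCL8 (-1.60), IL1A (-3.54), CD274 (-2.99), CD86 (4.71), CD40 (-0.49), CD163 (3.39), CD209 (-1.28), IL10 (-1.52), TGFB1 (-1.01), MKI67 (2.05), TNFRSF11A (1.50), ACOD1 (-4.97), SOCS3 (1.10), IRF1 (-1.50) and FN1 (1.08). The effect under stimulation uses stimulated replicate 4, on which that of CD163 depended, and the differences are not given without that library. Why these libraries and effects differ was not tested.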

How the results depend on the processing

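The counts of genes held within 1.5 times of 5876 higher, 5555 lower and 5203 changed at least 2-fold under RLE and upper-quartile factors, DESeq2, limma-voom, no count filter, a filter of at least 1 CPM in 4 libraries, the 8 libraries alone and the replicate block. With library totals alone 9020 genes were higher and 3066 lower, since the TMM factors of the 2 groups differ. Leaving out each library in turn gave 5724 to 6280 genes higher, 5386 to 5815 lower and 5222 to 5616 changed at least 2-fold. Tested against a minimum fold of 2, 2099 genes were higher and 1669 lower.

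Of 244 named genes 222 passed the test. Log2 fold changes that changed sign, all of genes that did not pass the test, were ABCA1 (0.33), CD163 (0.36), CD84 (0.30), HAVCR2 (0.41), IFI27 (0.05), IFIT1 (0.44), MMP9 (0.13) and RAB7B (0.39) with library totals alone, CD163 (0.75), CD84 (0.34), HAVCR2 (0.39), IFI27 (1.74), IFI44L (1.49), IFIT1 (2.43), ISG15 (0.55) and RAB7B (0.19) with limma-voom and HAVCR2 (0.009) and IFIT1 (0.026) with upper-quartile factors. Over the 8 libraries left out in turn, log2 fold changes ran from -0.45 to 1.62 for CD163, -0.80 to 0.65 for CD74, -0.46 to 0.93 for CD84, -0.31 to 0.98 for HAVCR2, -0.84 to 3.13 for IFI27, -1.06 to 2.91 for IFI44L, -0.46 to 3.87 for IFIT1, -0.86 to 1.45 for ISG15, -0.29 to 0.64 for RAB7B, -2.15 to 0.64 for RSAD2 and -0.16 to 3.43 for USP18, the highest in each case without stimulated replicate 4, where 9 genes gained a call in the direction of their estimate. Across settings at most 5 named genes lost a call, with the 8 libraries alone. DESeq2 gave no adjusted p for 20 of them. The median of the CC chemokine list, 0.59, was -0.18 with the filter of at least 1 CPM and -0.21 with the 8 libraries alone, because fewer members were tested.

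Whether replicate numbers pair the libraries cannot be told from these data. Deviations of same-numbered libraries from their group means correlated at -0.15, 0.002, -0.002 and -0.054 for replicates 1 to 4. The highest correlations with a co-cultured library of another number were 0.085, 0.071, 0.083 and 0.151. The stimulated group mean includes replicate 4, which stood apart, so low correlations do not show that the libraries were unpaired. With the replicate block 5869 genes were higher, 5499 lower and 5207 changed at least 2-fold, and the sign changed for CD163 (0.46), CD84 (0.088), HAVCR2 (0.18), IFI27 (1.75), IFI44L (1.68), IFIT1 (1.70), ISG15 (0.23) and RAB7B (0.054). At 18200706 to 24368753 counts per library, genes with few counts in a group give folds that depend on the counts assumed for zero. Tested genes named with at most 3 counts over a group are given as bounds, with counting intervals or, for LUM, as counts. The intervals cover counting error only. Genes with few counts above that limit are given as fitted log2 fold changes without such an interval. Among them are DCN, FOXM1 and, without stimulated replicate 4, MARCHF1.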
